A study of Rattus norvegicus with 12 samples.

Results

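The genes described are xanthine oxidoreductase (Xdh) and a group of 9 genes whose products form or remove reactive oxygen species in the lung: Cyba, Sod1, Sod2, Sod3, Cat, Gpx1, Gpx3, Prdx1 and Prdx6. Every probe set that the RAE 230A annotation assigns to a single gene of this group was taken, whatever its signal. This gave 10 probe sets for 9 of the 10 genes, out of 12783 probe sets that name a single gene and 10411 such genes on the array. Prdx1, a peroxiredoxin of the cytosol, had only a probe set that also names Prdx1l1, so no value is given for it. Cyba had 2 probe sets, and the dimmer of them did not pass the filter on low signal, under which the dimmest 40% were set aside. The other 9 probe sets passed, 1 for each of the 9 genes.

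Gene expression was measured in whole lung with 1 Affymetrix array per animal. The diabetic group consisted of 7 male Wistar rats that received streptozotocin intraperitoneally when 8 weeks old, and whose lungs were taken after 4 weeks of diabetes. The control group consisted of 5 male Wistar rats of the same age, 12 weeks at the time of study, that had received the buffer alone. All animals had fasted overnight and were anesthetized before the lungs were removed. Streptozotocin is toxic to pancreatic beta cells, which make insulin. The comparison is between animals given streptozotocin and animals given buffer. No insulin level was reported, and no insulin-treated group was studied here. The question was whether genes that generate or scavenge oxidants differ between diabetic and normal lung.

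Reactive oxygen species arise in the lung from several enzymes. Xanthine oxidoreductase oxidizes hypoxanthine to xanthine and xanthine to uric acid at the end of purine breakdown, and in its oxidase form it passes the electrons to oxygen, giving superoxide and hydrogen peroxide. Cyba encodes p22phox, the membrane subunit that stabilizes the catalytic subunit of the NADPH oxidases. Superoxide dismutases turn superoxide into hydrogen peroxide, which catalase, glutathione peroxidases and peroxiredoxins then reduce. The lung is known for a high content of extracellular superoxide dismutase and of peroxiredoxin 6, which also acts on the phospholipids of surfactant.

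Signals ran on a common scale across arrays. The median signal over all probe sets was 252.7 to 265.6 in diabetic lungs and 259.6 to 272.0 in control lungs (exact permutation test, p = 0.120). Sftpc, the surfactant protein C of alveolar type II cells, had 21484 to 30073 signal units over the 12 arrays, a marker bright on every array. In limma over 9520 probe sets, 16 passed an adjusted p of 0.05, and the count ran between 2 and 30 when any 1 animal was left out. The ratio of the GAPDH 3′ to 5′ probe sets, a measure of RNA quality, was 1.15 ± 0.0710 in diabetic lungs and 1.32 ± 0.0778 in control lungs (SD, n = 7 and 5; exact permutation test, p = 0.00505). The same ratio for beta-actin was 2.08 ± 0.372 in diabetic lungs and 2.06 ± 0.437 in control lungs (exact permutation test, p = 0.920).

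Xdh had a higher mean signal in diabetic lung, but the difference did not pass the threshold over all probe sets. It was carried mostly by 2 of the 7 diabetic animals. Diabetic animals 1 to 7 had Xdh signals of 3949, 2908, 7395.5, 3514, 2554, 7112 and 3108, whereas control animals 1 to 5 had 2472.5, 2635, 2446, 2681 and 2535. Diabetic animals 3 and 6 were far above the rest, diabetic animal 5 lay inside the control range, and the other 4 diabetic animals lay above every control. The mean was 4363 ± 2025 in diabetic lungs and 2554 ± 101 in control lungs (SD, n = 7 and 5), a 1.71-fold ratio of means and a 1.39-fold ratio of medians. On the log2 scale the difference was 0.65 with a standard error of 0.23 and a 95% confidence interval of 0.16 to 1.15, which is 1.12- to 2.21-fold. Its p was 0.0125 in limma and 0.189 after Benjamini-Hochberg adjustment over the 9520 probe sets. The exact permutation test of log2 signal gave p = 0.0303, where 0.00126 is the smallest value that 7 against 5 animals allow. Xdh was already reported as higher in diabetic lung from these same arrays, by another test. These p-values are therefore a description and not independent support. Relative to the control mean, the diabetic animals 1 to 7 had 1.55, 1.14, 2.90, 1.38, 1.00, 2.78 and 1.22 times the Xdh signal.

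**Figure D1:**
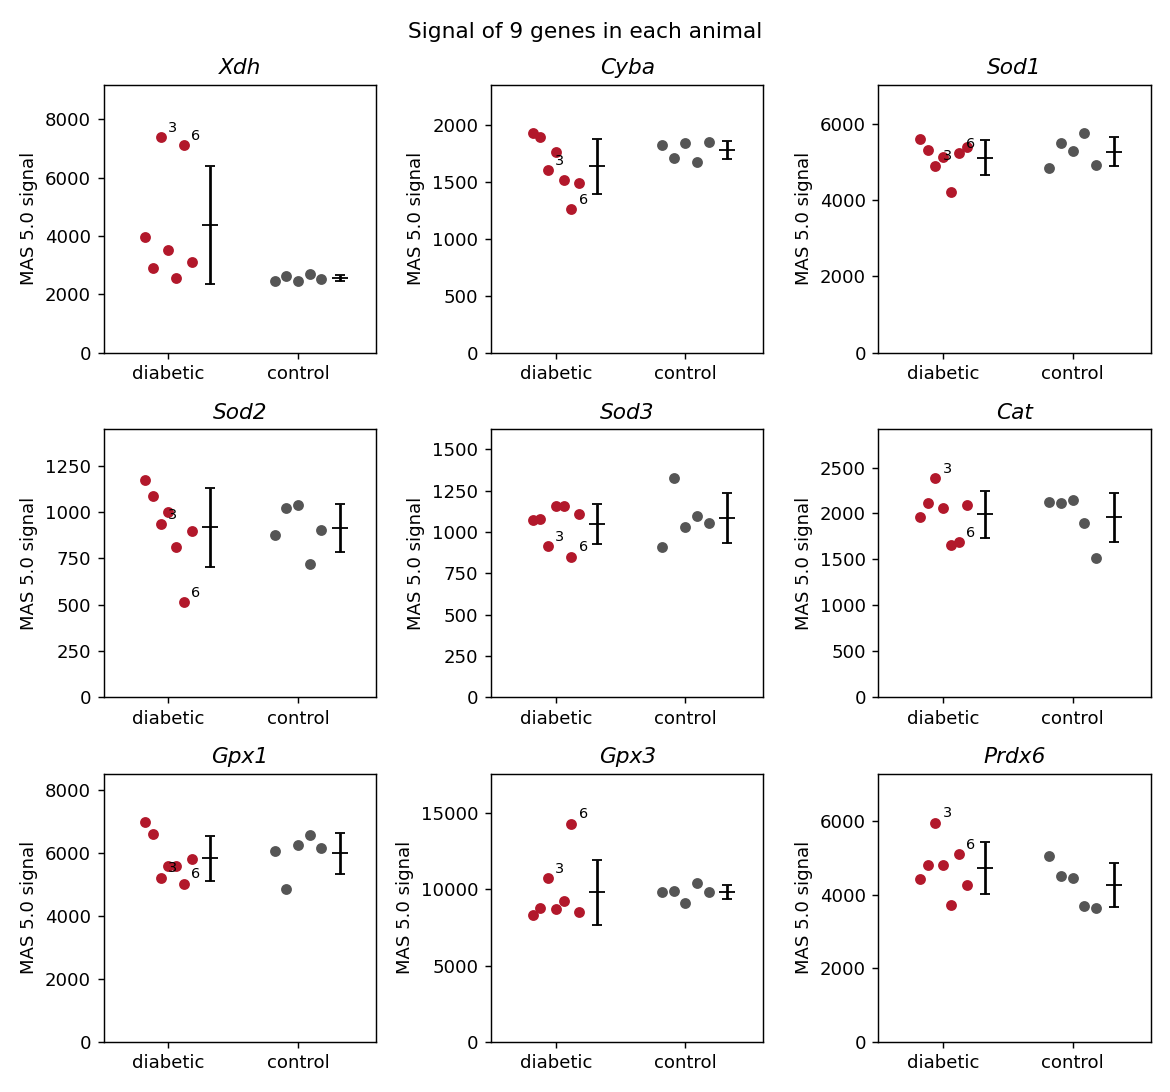
MAS 5.0 signal of each gene by animal, with 1 panel per gene, the 7 diabetic lungs left of the 5 control lungs, each point 1 array, diabetic animals 3 and 6 numbered, and the bar the group mean with SD. For Xdh, diabetic animals 3 and 6 stand at 7395.5 and 7112, above the control range of 2446 to 2681, and diabetic animal 5 lies inside it at 2554. The points of the other 8 genes overlap between groups as well.

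Xdh lies on rat chromosome 6 at positions 27282319 to 27344022 of the GRCr8 assembly. The 250 bases before its annotated start and those before the start of Gpx3 are shown because these genes shared their highest arrays, as described for Gpx3. Prdx6 shared these arrays too but had no promoter entry, so it is not shown or compared. The sequences are RefSeq's, given from 5′ to 3′ on the strand of the gene. Capitals mark matches, on either strand, to the 6 motifs searched, which were TATAAA (the TATA box), CCAAT (bound by NF-Y), GGGCGG (bound by Sp1), CACGTG (an E-box), TGACNNNGC (the antioxidant response element) and AGAACA (read by the glucocorticoid receptor).
Xdh, chr6:27282069-27282318, plus strand: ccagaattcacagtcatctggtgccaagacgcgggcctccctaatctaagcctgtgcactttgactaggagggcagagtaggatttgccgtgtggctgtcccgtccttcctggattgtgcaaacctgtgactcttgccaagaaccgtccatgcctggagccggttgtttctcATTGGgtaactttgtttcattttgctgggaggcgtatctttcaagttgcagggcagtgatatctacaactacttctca
Gpx3, chr10:39529085-39529334, plus strand: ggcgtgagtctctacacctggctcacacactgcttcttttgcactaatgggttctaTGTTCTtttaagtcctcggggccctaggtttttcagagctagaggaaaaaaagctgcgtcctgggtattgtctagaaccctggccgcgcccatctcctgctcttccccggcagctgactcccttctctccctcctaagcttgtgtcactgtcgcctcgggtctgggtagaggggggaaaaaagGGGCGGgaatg
The Xdh window held CCAAT on the opposite strand, beginning 78 bases before the start, a motif found in 34.3% of 27457 rat promoter windows of the same length. The Gpx3 window held AGAACA on the opposite strand 194 bases before the start, as 17.1% of windows do, and GGGCGG 11 bases before it, as 32.4% do. Xdh and Gpx3 therefore shared none of these 6 motifs in the windows shown, which is a description of letters and not of binding.

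The Xdh signal was more spread out among diabetic than among control animals. The SD of log2 signal was 0.616 among the 7 diabetic lungs and 0.0571 among the 5 control lungs, a ratio of 10.8. Of the 9520 probe sets, 5 (0.0525%) had a larger ratio. The diabetic SD of Xdh exceeded that of 98.6% of probe sets, and its control SD exceeded that of 2.61%, so the ratio combines a wide diabetic group with a narrow control group. Median SDs over all probe sets were 0.181 in diabetic and 0.170 in control lungs. These ranks are a description, since the spread was looked at after the values were seen.

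Leaving out single animals kept the sign of the Xdh difference, and it stayed unadjusted below 0.05 in each such fit. Without diabetic animal 3 it was 0.51 (adjusted p = 0.261) and without diabetic animal 6 it was 0.52 (adjusted p = 0.224). Without both it was 0.31 with a standard error of 0.10 (adjusted p = 0.186). The remaining 5 diabetic lungs averaged 3207 ± 541, against the control mean of 2554 ± 101 (SD, n = 5 each), or 1.26-fold.

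The GAPDH ratio moved with group, and diabetic animal 6 departed from its group in it. Diabetic animal 6 had a ratio of 1.30, diabetic animal 3 had 1.17, and the other 5 diabetic animals had 1.10 to 1.13, against 1.23 to 1.44 in the controls. With this ratio as a covariate in limma the Xdh difference was 1.36 with a standard error of 0.30 (adjusted p = 0.0290), a fit in which 288 probe sets passed. With diabetic animal 6 left out of that fit it was 1.08 (adjusted p = 0.583) and 0 probe sets passed, and with diabetic animals 3 and 6 left out it was 0.39 (adjusted p = 0.800). The part of RNA quality in the Xdh values was not tested.

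**Figure D2:**
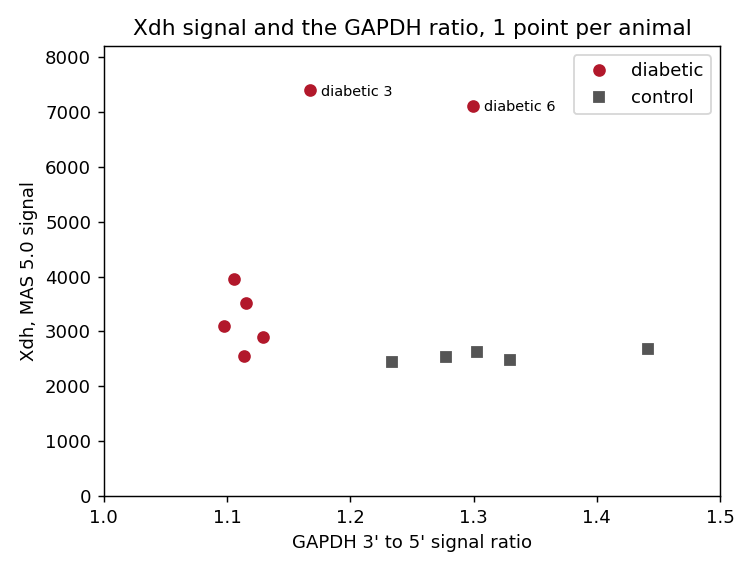
Xdh MAS 5.0 signal (vertical axis) against the ratio of the GAPDH 3′ to 5′ probe sets (horizontal axis), each point 1 lung, with diabetic animals before controls in the legend. Diabetic animals 3 and 6 have the 2 highest Xdh signals at ratios of 1.17 and 1.30, and all controls lie at ratios of 1.23 to 1.44.

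Of 14 lists of cell type markers, only that of fibroblasts passed an adjusted p of 0.05 in the exact permutation test of its sum. The summed signal of 9 fibroblast markers, which include collagen genes and Pdgfra, was 11258 to 21979 in diabetic lungs and 25657 to 26745 in control lungs, so the groups did not overlap. The ratio of means was 0.689 (exact permutation test, p = 0.00126, the smallest value possible, and 0.0177 adjusted over 14 marker lists). The list holds Col1a1 and Col3a1, already reported as lower in diabetic lung from these same arrays. This p is therefore a description and not independent support. Among the 8 markers kept by the filter, 6 were lower and 1 was higher at an unadjusted p under 0.05, the higher being Pdgfra, with 2722 to 4439 in diabetic lungs and 1930 to 2452 in control lungs. When the mean of log2 signals replaced the sum, the adjusted p was 0.106. Diabetic animals 6 and 3, the animals with high Xdh, had the lowest and second lowest fibroblast sums of all 12 arrays, at 11258 and 15496. They were also the 2 lowest arrays for the summed T lymphocyte markers, at 1413 and 2185, where all diabetic lungs had 1413 to 3340 and control lungs 2555.5 to 3059 (exact permutation test, p = 0.668). Of 6 B lymphocyte markers only Cd79b had a probe set, with 84.1 to 307.3 in diabetic lungs and 262.3 to 407.7 in control lungs, a ratio of means of 0.601 (exact permutation test, p = 0.0101, adjusted p = 0.0707). Cd79b too was already reported as lower in diabetic lung from these same arrays, so its p is likewise a description. For Cd79b, diabetic animal 6 was the lowest of the 12 arrays and diabetic animal 3 had 164.5. Of the 8 alveolar type II markers, 7 had a probe set, and their sum was 75065 to 98769 in diabetic lungs and 77846 to 94018 in control lungs (exact permutation test, p = 0.919). Diabetic animal 6 had the highest of these sums, and diabetic animal 3 had 84680. Diabetic animal 6 was also highest for the summed airway club markers, at 33268. It was second highest for those of alveolar type I, at 36358, and of endothelium, at 23794. Diabetic animal 3 had 24765, 35038 and 20389 for airway club, alveolar type I and endothelium. Of the 8 neutrophil markers, 4 had a probe set, and their sum was 2226.5 to 6430 in diabetic lungs and 2392 to 4176 in control lungs (exact permutation test, p = 0.687), with diabetic animal 3 highest. In whole tissue, fewer cells of a type and less RNA per cell cannot be told apart. The part of these cell types in the Xdh values was not tested.

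Cyba had a lower mean signal in diabetic lung, without passing the test. Its brighter probe set had signals of 1261 at the lowest, 1605 at the median and 1929 at the highest in diabetic lungs. In control lungs 1 to 5 the signals were 1823, 1708.5, 1846, 1678 and 1856. The diabetic values lay on both sides of the controls, with 4 animals below every control and 2 above every control. The mean was 1639 ± 240 in diabetic lungs and 1782 ± 82.9 in control lungs (SD, n = 7 and 5), a log2 difference of -0.13 with an interval of 0.789- to 1.05-fold (limma, adjusted p = 0.524). As in Xdh, the diabetic lungs were more spread out, with an SD of log2 signal of 0.218 against 0.0677 in controls, a ratio of 3.21 that 3.51% of probe sets exceeded. The log2 difference of Cyba was -0.07 without diabetic animal 6 and -0.40 with the GAPDH ratio as a covariate (limma, adjusted p = 0.122). With that covariate and without diabetic animal 6 it was -0.19 (adjusted p = 0.842). The dimmer probe set averaged 84.1 ± 23.3 in diabetic lungs and 102.9 ± 26.4 in control lungs and was not tested.

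The 3 superoxide dismutases showed no difference larger than the spread between animals. Sod1, the copper-zinc enzyme of the cytosol, had 4218 to 5622 signal units in diabetic lungs with a median of 5231, and 4860, 5499, 5306, 5780 and 4931 in control lungs 1 to 5. The means were 5117 ± 454 in diabetic and 5275 ± 386 in control lungs, with an interval for the ratio of 0.866- to 1.08-fold (limma, adjusted p = 0.806). Sod2, the manganese enzyme of mitochondria, had 512.8 to 1174 signal units in diabetic lungs with a median of 936.3, and 879.1, 1023, 1040, 718.7 and 902.3 in control lungs 1 to 5. Both the highest and the lowest Sod2 arrays were diabetic, and the lowest was diabetic animal 6. The interval for Sod2 was 0.771- to 1.26-fold (limma, adjusted p = 0.967), the widest of the scavenger genes, and its log2 difference of -0.02 turned to 0.01 when each array was centred on its median. With the GAPDH ratio as a covariate it was -0.68 (adjusted p = 0.0447), but with diabetic animal 6 left out of that fit it was -0.35 (adjusted p = 0.718), and with diabetic animals 3 and 6 left out -0.39 (adjusted p = 0.800). Sod3, the extracellular enzyme bound to matrix, had 850.3 to 1158 signal units in diabetic lungs with a median of 1078, and 910.1, 1326, 1032, 1098 and 1053 in control lungs 1 to 5. The ratio interval for Sod3 was 0.833- to 1.13-fold (limma, adjusted p = 0.857).

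**Figure D3:**
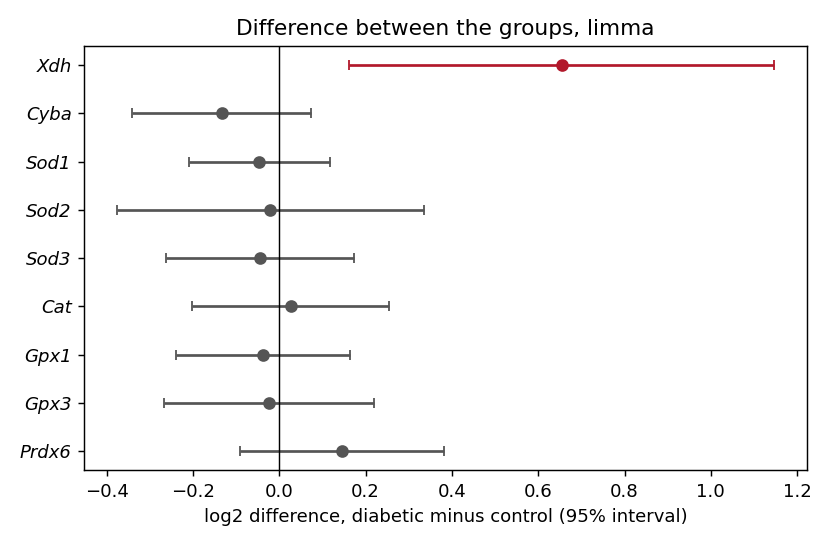
Log2 difference of signal, diabetic minus control, for each of the 9 genes with a tested probe set, with the 95% confidence interval from limma as a bar. The interval lies wholly above 0 for Xdh, at 0.16 to 1.15, and spans 0 for the other 8 genes.

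The enzymes that remove hydrogen peroxide likewise differed by less than the spread. Catalase (Cat), an enzyme of peroxisomes, had 1653 to 2385 signal units in diabetic lungs with a median of 2058, and 2121, 2117, 2142, 1896 and 1515 in control lungs 1 to 5. The interval for its ratio was 0.870- to 1.19-fold (limma, adjusted p = 0.928). Gpx1, the glutathione peroxidase of the cytosol, had 5021.5 to 6989 signal units in diabetic lungs with a median of 5593, and 6068, 4856.5, 6268, 6577 and 6153 in control lungs 1 to 5. The control lung 2 was the lowest of all 12 arrays for Gpx1, and the interval was 0.847- to 1.12-fold (limma, adjusted p = 0.874). Prdx6, peroxiredoxin 6, had 3712 to 5964 signal units in diabetic lungs with a median of 4820, and 5054, 4516, 4456.5, 3699 and 3637 in control lungs 1 to 5. Its means were 4733 ± 708 in diabetic and 4273 ± 599 in control lungs (SD, n = 7 and 5), a 1.11-fold ratio with an interval of 0.939- to 1.30-fold (limma, adjusted p = 0.544).

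Gpx3, the secreted glutathione peroxidase of extracellular fluid, had nearly the same mean in both groups, with the diabetic animals on both sides of the controls. Diabetic animals 1 to 7 had signals of 8325, 8761, 10744, 8717, 9271, 14326 and 8506, whereas control animals 1 to 5 had 9825, 9885, 9106, 10393 and 9835. Diabetic animals 6 and 3 were above every control and 4 diabetic animals were below every control. The means were 9807 ± 2151 in diabetic lungs and 9809 ± 459 in control lungs (SD, n = 7 and 5), with an interval for the ratio of 0.830- to 1.16-fold (limma, adjusted p = 0.941). The log2 difference of -0.02 turned to 0.00 when each array was centred on its median. Without diabetic animals 3 and 6 the log2 difference was -0.17 (adjusted p = 0.206), and with the GAPDH ratio as a covariate it was 0.42 (adjusted p = 0.0586). With diabetic animal 6 left out of the covariate fit it was 0.16 (limma, adjusted p = 0.818). The SD of log2 signal was 0.280 in diabetic and 0.0682 in control lungs, a ratio of 4.11 that 1.63% of probe sets exceeded. For the remaining 6 genes, Sod1, Sod2, Sod3, Cat, Gpx1 and Prdx6, that ratio was 0.879 to 1.83.

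The same diabetic animals 3 and 6 had the 2 highest signals of all 12 arrays in 3 of the 9 genes, namely Xdh, Gpx3 and Prdx6, a pattern noticed after the values were seen. Over all tested probe sets, 502 (5.27%) had their 2 highest signals in these arrays. In Xdh the third highest array was diabetic animal 1 at 3949, whereas in Gpx3 and Prdx6 it was a control, at 10393 and 5054. Diabetic animal 6 was also the lowest of the 12 arrays for Cyba, Sod2 and Sod3, so its array was not raised in every gene of the group.

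**Figure D4:**
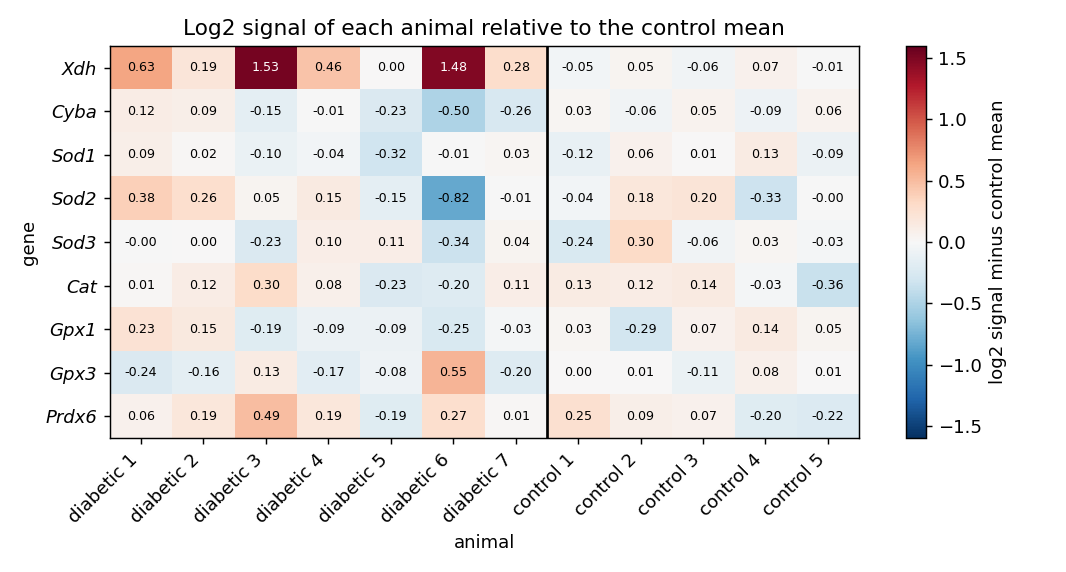
Log2 signal of each animal minus the mean log2 signal of the 5 controls, for the 9 genes (rows) and the 12 lungs (columns, the 7 diabetic animals left of the controls). The darkest high cells are those of Xdh in diabetic animals 3 and 6, which had 2.90 and 2.78 times the control mean of Xdh signal.

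Over the 9 genes, 0 passed an adjusted p of 0.05 in limma, where 0.168% of all probe sets passed. Without adjustment, 1 of the 9, Xdh, had a p under 0.05 in limma, as did 16.4% of all probe sets. Diabetic and control signals were separate in 0 of the 9 genes, and in 2.04% of all probe sets. The log2 difference was above 0 in 3 genes and below 0 in 6, with a median of -0.02 beside -0.01 over all genes tested. The 7 scavenger genes tested had ratios of means between 0.967 and 1.11, and their intervals together ran from 0.771- to 1.30-fold.

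The probe sets whose signal was most like that of Xdh were ranked over the 12 arrays after the mean of each group was subtracted, among 8041 candidates naming another gene. The first was Crispld2, a secreted protein with a Pearson r of 0.92 and a Spearman rho of 0.75. Its signal was 1630 and 1567 in diabetic animals 3 and 6, 421.6 to 569.0 in the other diabetic animals, and 514.0 to 650.2 in controls. The next was Gtf3a, transcription factor IIIA of the ribosomal 5S genes, with r of 0.91 and rho of 0.69. Its signal was 327.4 and 394.3 in diabetic animals 3 and 6, 148.5 to 207.1 in the other diabetic animals, and 145.3 to 177.5 in controls. The following was Cyp2e1, a cytochrome P450 that oxidizes ethanol and ketone bodies, with r of 0.91 and rho of 0.82. Its signal was 2906 and 2529.5 in diabetic animals 3 and 6, 248.1 to 320.4 in the other diabetic animals, and 171.0 to 494.2 in controls. Over the 10 arrays without diabetic animals 3 and 6, r with Xdh was -0.01 for Crispld2, 0.36 for Gtf3a and 0.05 for Cyp2e1, so the likeness rested on those arrays.

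Related genes were read from 6 lists covering other oxidant sources, purine breakdown, other peroxidases and the thioredoxin system, glutathione and NADPH supply, metal and haem handling, and repair of oxidized molecules. They hold 128 genes, of which 104 had a probe set of their own and 83 were tested. None of the 83 passed an adjusted p of 0.05 in limma. With no adjustment, 18 (21.7%) had a p under 0.05, of which 3 had higher and 15 lower signal in diabetic lung. Of the 7036 genes tested, 16.6% had such a p, and 641 of those 1167 had lower signal. The median log2 difference of the 83 genes was -0.04, against -0.01 over all genes.

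Of 11 oxidant sources tested, 1 was higher at an unadjusted p under 0.05 and 0 were lower. Aox1, the aldehyde oxidase related to xanthine oxidoreductase, averaged 364 ± 76.9 in diabetic and 258 ± 70.2 in control lungs (SD, n = 7 and 5), a log2 difference of 0.50 (limma, adjusted p = 0.191), and its groups overlapped. Ero1a, the oxidase of disulfide formation in the endoplasmic reticulum, differed by 0.22 at its brighter and by 0.04 at its other probe set, and Rac1, a GTPase that activates NADPH oxidase, by -0.16 on the log2 scale. Cybb, the catalytic partner of p22phox in phagocytes, named here after its value was seen, differed by 0.06 (adjusted p = 0.824). In the list of purine breakdown, which also holds salvage enzymes, 2 of 11 genes were lower at that level and 0 were higher, and both were salvage enzymes. Adk, which phosphorylates adenosine, averaged 2285 ± 282 in diabetic and 2921 ± 417 in control lungs, a difference of -0.35 (limma, adjusted p = 0.134), and its other probe set gave -0.18. Aprt, which salvages adenine, averaged 2960 ± 361 in diabetic and 3567 ± 216 in control lungs, a difference of -0.28 (limma, adjusted p = 0.145). The third of this list was Ampd3, an AMP deaminase, at -0.24. Gda, guanine deaminase, which forms xanthine and is named here after its values were seen, was counted at its brighter probe set, at 0.04 (adjusted p = 0.869), while its other probe set gave 0.36 (adjusted p = 0.0984).

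Among other peroxidases and the thioredoxin system, 6 of 21 genes were lower at an unadjusted p under 0.05 and 0 were higher. Pxdn, peroxidasin of the basement membrane, averaged 2718 ± 345 in diabetic and 3648 ± 353 in control lungs without overlap, a log2 difference of -0.43 (limma, adjusted p = 0.0701). At its other probe set the groups overlapped, with a difference of -0.31 (limma, adjusted p = 0.0984). Gpx7, a glutathione peroxidase of the endoplasmic reticulum, averaged 387 ± 52.5 in diabetic and 489 ± 50.6 in control lungs (adjusted p = 0.140). Txnrd1, thioredoxin reductase of the cytosol, averaged 911 ± 67.0 in diabetic and 1084 ± 110 in control lungs (adjusted p = 0.155). Its log2 difference was -0.25, and its other probe set gave -0.21. The other 3 were Ccs, Prdx2 and Gpx2, named to complete the count after their values were seen, with differences of -0.26, -0.20 and -0.30. Txnl1, a thioredoxin-like protein also named after its values were seen, was counted at 0.15, and its other probe set gave 0.26 (adjusted p = 0.291). In glutathione and NADPH supply, 1 of 12 genes was lower and 0 were higher. This was Shmt1, the serine hydroxymethyltransferase of the cytosol, with 448 ± 23.6 in diabetic and 570 ± 77.8 in control lungs, a difference of -0.34 (limma, adjusted p = 0.0926) and no overlap. The next of this list were Nnt, the mitochondrial transhydrogenase, at -0.15, and Gclc, which makes the first step of glutathione synthesis, at -0.12, where a second Gclc probe set gave 0.22.

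In metal and haem handling, 2 of 15 genes were higher and 3 were lower at that level. Slc39a8, a zinc and manganese importer, averaged 708 ± 387 in diabetic and 394 ± 73.5 in control lungs, a log2 difference of 0.71 with a standard error of 0.27 (limma, adjusted p = 0.203). Selenop, the secreted carrier of selenium, averaged 11668 ± 1188 in diabetic and 10109 ± 393 in control lungs, a difference of 0.20 (limma, adjusted p = 0.189). A dimmer Selenop probe set did not pass the filter and was not tested. It averaged 159.1 ± 41.4 in diabetic and 111.3 ± 49.4 in control lungs. Slc11a2, an iron transporter, differed by -0.22 (adjusted p = 0.251), and its other probe set gave -0.33. In repair of oxidized molecules, 3 of 13 genes were lower and 0 were higher. Aldh1a1, an aldehyde dehydrogenase, averaged 4277 ± 878 in diabetic and 6421 ± 804 in control lungs without overlap, a difference of -0.61 with a standard error of 0.14 (limma, adjusted p = 0.0729). Nqo1, a quinone reductase, averaged 1125 ± 102 in diabetic and 1312 ± 60.5 in control lungs, a difference of -0.23 (limma, adjusted p = 0.167), and Pon2, a paraoxonase, differed by -0.20. Pxdn is also secreted into matrix, and the fibroblast marker sum was lower in diabetic lungs, 11258 to 21979 against 25657 to 26745 in controls. The part of these cells in the values of the lists was not tested.

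**Figure D5:**
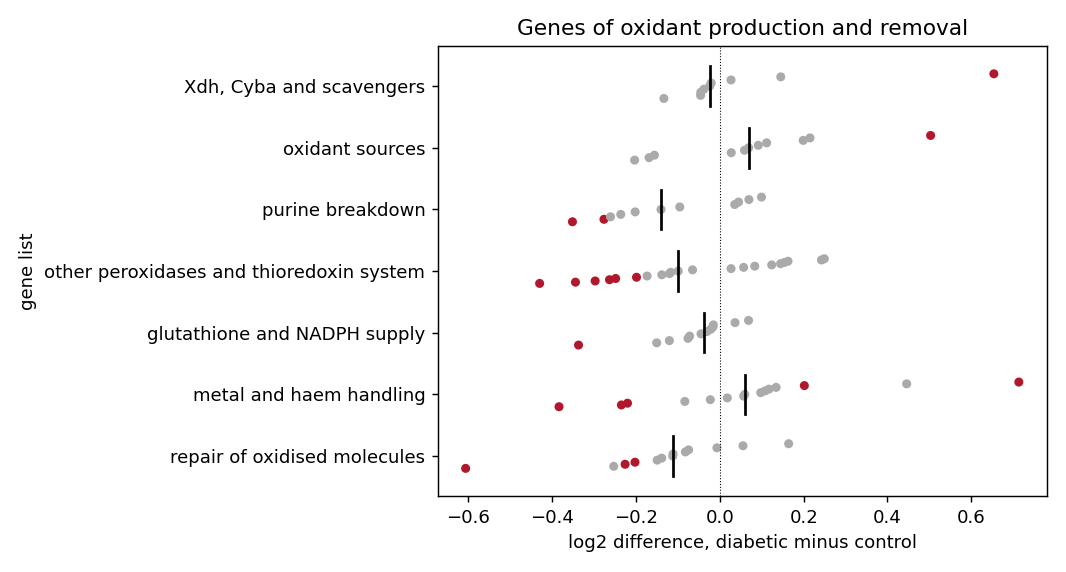
Log2 difference of signal, diabetic minus control, for each tested gene of the 6 related lists and of the group itself, with 1 row per list, a point per gene and the median marked. Medians ran from -0.14 for purine breakdown to 0.07 for oxidant sources, and single genes ran from -0.61 for Aldh1a1 to 0.71 for Slc39a8.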

How the data were processed

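Whole lung RNA of 7 diabetic and 5 control rats, extracted with Trizol, was measured on RAE 230A arrays of Affymetrix without pooling. MAS5 was used by the authors to reduce each probe set to a single signal, and the deposited values are linear intensity. Mismatch subtraction in MAS5 makes low signals noisy. Groups came from the sample titles and the treatment notes. Log2 signal (floor 0.1, reached by 1 value) was compared by a moderated linear model (limma 3.58.1 in R 4.3.3, functions lmFit and eBayes, trend by intensity, two-sided) over 9520 probe sets, after Affymetrix control probe sets and the 40% with the lowest mean, under a signal of 170.0, were removed. P-values were adjusted by Benjamini-Hochberg over all 9520, and the threshold was 0.05. Single measures were compared by exact permutation over all splits of the animals, two-sided. A gene of a related list was read at its brightest kept probe set.

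Probe sets were named through Entrez identifiers (12748), accessions (2) or the annotation's symbol (33), while those without a single gene (312 with several, 2771 with none) were tested unnamed. Promoter windows were taken from RefSeq, GRCr8, and 8 of the 10 genes had an entry. The genes and lists were chosen with earlier results of these data known. The text names all 10 genes, the 3 lowest p of each related list, and the 3 probe sets most like Xdh. The fit was tested on simulated data. Precision is limited by how many arrays there are. Alternatives were scaling, quantile normalization, another filter, another variance model, a pseudocount of 64, array weights, a replicate block, RNA quality covariates, all probe sets of a gene and leaving out each animal. Fits without diabetic animals 3 and 6, with and without the GAPDH covariate, were added after seeing the data. The Bayesian analysis of variance software and the present and absent calls were not used here. Plots used matplotlib 3.10.9 under python 3.11.15.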

Additional observations from a re-analysis of the deposited data

Results flagged for a closer look

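Of 90 sets of 4 to 10 values tested for a value far from the rest of its group (Dixon's test), 4 were found, and chance alone gives about 1 in 20. Gpx3 had a signal of 14326 in diabetic animal 6, whereas the other diabetic animals had 8325 to 10744. The GAPDH 3′ to 5′ ratio was 1.30 in diabetic animal 6, whereas the other diabetic animals had 1.10 to 1.17. The summed signal of the alveolar type I markers was 36713 in control animal 1, whereas the other controls had 32693 to 33840. The summed signal of the smooth muscle markers was 5754 in control animal 5, whereas the other controls had 4183 to 4469.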

How the results depend on the processing

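The Xdh difference kept its sign in 28 alternatives, at 0.31 to 1.36 on the log2 scale with adjusted p of 0.0290 to 0.800, and passed the threshold with the GAPDH ratio as a covariate. Another filter, variance model or test cannot change the difference itself, and Xdh had a single probe set. In those alternatives it therefore stayed at 0.65, and its sign could not turn. Against 16 probe sets, the count was 25 with quantile normalization, 7 with no filter, 32 with 60% filtered out, 9 with no intensity trend, 80 with array weights, 288 with the GAPDH covariate and 27 with the beta-actin covariate. It was 0 with the GAPDH covariate when diabetic animal 6, or animals 3 and 6, were left out. The share of higher calls was 56.3% in the fit reported, 75.0% with each array centred on its median and 43.1% with the GAPDH covariate. Leaving out 1 animal gave 2 probe sets (without control 2 or control 4) to 30 (without diabetic 6), 0 to 0 genes of the group past the threshold, 1 to 1 at an unadjusted p under 0.05, and 14 to 19 related genes at that level against 18. The number of related genes was 21 with the GAPDH covariate, 6 with it and without diabetic 6, and 7 with it and without diabetic animals 3 and 6. With the GAPDH covariate 2 genes of the group passed, Xdh at 1.36 and Sod2 at -0.68, and 4 of the 9 were under 0.05 unadjusted. That number was 2 without diabetic animals 3 and 6, and 0 without them with the GAPDH covariate. The share of all probe sets under 0.05 unadjusted was not taken for the alternative fits. Their counts of group and related genes at that level are therefore descriptions, not results about these genes. Replicate numbers 1 to 5 are shared by the groups but pair no animals (correlations of -0.12 to 0.04, with 1 of 5 pairs matching best). Numbers 6 and 7 occur only among diabetic animals. A fit with the replicate number as a block therefore takes nothing from diabetic animals 6 and 7 for the difference between groups. With the replicate block 11 probe sets and 0 genes of the group passed, and Xdh was at 0.56 (adjusted p = 0.270) and Cyba at -0.036.

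Signs turned for 7 of the 9 genes, in differences that did not pass the threshold. With each array centred on its median, Gpx3 was 0.0024 and Sod2 0.0059. With array weights, Gpx1 was 0.039 and Sod2 0.015. With the replicate block, Gpx1 was 0.0023 and Sod2 0.14. With the GAPDH covariate, Gpx3 was 0.42, Sod1 0.011 and Cat -0.071. With that covariate and without diabetic 6, Gpx3 was 0.16, Gpx1 0.019 and Sod1 0.037. With it and without diabetic animals 3 and 6, Gpx3 was 0.015, Gpx1 0.17, Sod1 0.092, Prdx6 -0.091 and Sod3 0.071. Without diabetic animals 3 and 6 alone, Gpx1 was 0.034, Sod3 0.051 and Sod2 0.12. Leaving out 1 animal gave Cat -0.063 (without control 5) to 0.070, Sod3 -0.11 to 0.030 (without control 2), Sod2 -0.10 to 0.11 (without diabetic 6) and Gpx3 -0.12 to 0.011 (without diabetic 1). As a mean of log2 signals, the alveolar type II list was 0.037 and the fibroblast list -0.50 (exact permutation test, adjusted p = 0.106). The cause of these changes was not tested. The number of arrays and the low signals of MAS5 limit what could be detected.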
